A study of Mus musculus with 24 samples.

Results

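This account describes 9 genes of cold and heat stress, Rbm3, Cirbp, Hspa1a, Hspa1b, Hspa8, Hsph1, Dnajb1, Hsp90aa1 and Hspb1, in mouse colorectal tissue. They are 9 of the 24346 gene symbols in the deposited tables, matched by symbol in every library, and all 9 passed the filter on low values that left 13799 genes for testing. The genes were selected on earlier results from the same FPKM values. Rbm3 was chosen by its low level in the tumors titled 1_hetero, beside the tumors titled wild_young and the normal 1_hetero tissue. Comparisons with the 1_hetero tumors are therefore given for all 9 genes as values, with no test. Tests of Rbm3 that use the wild_young tumors are not independent of this choice. All animals received AOM/DSS, the carcinogen azoxymethane with dextran sulfate sodium, which inflames the colon. The 24 RNA-seq libraries fell into 10 groups by title. Libraries labelled with the genotype c-MAF_KO carried the titles 1_hetero, 8_hetero and 8_homo, with 3 tumor and 2 normal libraries each. Libraries labelled WT carried the titles wild_young, with 4 tumor and 2 normal libraries, and wild_old, with 1 tumor and 2 normal libraries. The labels give no strain, sex, age in numbers, promoter or Cre, and they explain neither the numbers 1 and 8 nor which pieces came from the same animal. P-values therefore measure only the spread between these libraries, part of which may be technical.

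RBM3 and CIRBP are RNA-binding proteins whose transcripts accumulate when cells are cooled mildly, and both fall when cells are warmed. The heat shock genes respond the other way: heat or misfolded protein releases the transcription factor HSF1, which binds heat shock elements, inverted repeats of the letters GAA and TTC, in their promoters. HSPA1A and HSPA1B are the strongly inducible HSP70 chaperones, HSPA8 is the constitutive one, HSPH1 exchanges their nucleotide, DNAJB1 delivers substrates to them, HSP90AA1 is the inducible HSP90, and HSPB1 is a small heat shock protein that holds unfolded protein. In the gut, chaperones serve secretory and renewing epithelium, and small heat shock proteins are abundant in muscle.

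The values were FPKM (fragments per kilobase of transcript, scaled to each library's mapped fragments), so read totals per library are unknown. Relative depth was estimated among genes under 1 FPKM in every library, as the inverse of their most frequent FPKM ratio to a reference library. It ranged from 0.69 to 1.87 times the median library, and 12074 to 13290 genes reached 1 FPKM. Maf, the gene named in the genotype label, was not lower in the libraries labelled c-MAF_KO. Its lowest, median and highest FPKM were 2.62, 4.46 and 7.40 in their 9 tumors against 1.63, 1.92 and 7.26 in the 5 tumors labelled WT. In normal tissue they were 1.52, 2.92 and 6.27 in the 6 libraries labelled c-MAF_KO against 1.37, 2.41 and 2.82 in the 4 labelled WT. The targeted part of Maf is not given, so directions between title groups below are directions between libraries so labelled. The 8 epithelial markers (among them Epcam, Cdh1 and Krt8) were above 0 in all libraries. The 8 smooth muscle markers (among them Acta2, Myh11 and Des) were also above 0 in all, and their summed FPKM ranged from 173 to 2877 in tumors and from 926 to 7123 in normal tissue. In such bulk pieces, fewer cells of a type and less RNA per cell cannot be told apart.

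Rbm3, which lies on chromosome X at chrX:8138975-8145880 (mm10, minus strand), rose from a mean of 226 FPKM in wild_young normal tissue to 453 FPKM in wild_young tumors. The 4 tumors had 509, 537, 358 and 408 FPKM. The 2 normal libraries had 210.5 and 242 FPKM. The groups did not overlap, and the log2 difference was 0.98 (SE 0.23, adjusted p = 0.00604, limma with Benjamini-Hochberg adjustment). It was the only 1 of the 9 genes past the threshold there, where 26.1% of all genes tested passed. The wild_young tumors took part in the choice of Rbm3, so its p is not independent of that choice. By range alone, Rbm3 and Dnajb1 were higher and Hspa1a and Hspa1b lower in these tumors, where 46.3% of all genes did not overlap. Without wild_young normal replicate 1 the Rbm3 difference was 0.88 with an adjusted p of 0.0537.

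The tumor excess of Rbm3 did not pass in 8_hetero or 8_homo with the values as deposited. The 8_hetero tumors were spread widely, at 401, 458 and 217 FPKM, around their normal libraries at 285 and 322 FPKM. The log2 difference there was 0.17 (SE 0.25, limma adjusted p = 0.593). It was 0.84 with quantile normalization (limma adjusted p = 0.0411), 0.83 on the TPM scale (limma adjusted p = 0.0173), where the median of all genes was 0.59, and 0.50 without tumor replicate 3 (limma adjusted p = 0.0478). It was -0.039 without tumor replicate 2 (limma adjusted p = 0.912). With a term for Xist, described below, it was -0.0059 (limma adjusted p = 0.99). As deposited, 0 of the 9 genes passed where 43.1% of all genes did. At an unadjusted p under 0.05 the number of the 9 genes was also 0 in this limma comparison, beside 51.9% of all genes. Ranges of all 9 overlapped, where those of 50.4% of all genes did not. The 8_homo tumors, at 243, 218 and 243 FPKM, lay close to their normal libraries at 214 and 231 FPKM. The log2 difference was 0.07 (SE 0.25, limma adjusted p = 0.859), and 0 of the 9 genes passed where 23.0% of all genes did. At an unadjusted p under 0.05 it was also 0 in limma, beside 37.4% of all genes. By range, Dnajb1 was higher and Hspa1a, Hspa1b and Hspb1 lower in the 8_homo tumors, where 68.7% of all genes did not overlap. The single wild_old tumor had 301 FPKM beside 226 and 224 in wild_old normal tissue.

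Whether the tumor excess itself differed between groups was tested as an interaction. Rbm3's tumor-normal difference was lower by 0.81 on the log2 scale in 8_hetero than in wild_young (log2 -0.81, SE 0.34, limma adjusted p = 0.254). For 8_homo the value was -0.91 (SE 0.34, limma adjusted p = 0.589). Neither passed. In these limma interactions 0.0942% and 0.0% of all genes passed, and at an unadjusted p under 0.05 the counts were 2365 and 864. All of these comparisons share the wild_young libraries, whose tumors took part in the choice of Rbm3.

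Between tumors of different titles, Rbm3 was 1.93 times as high in wild_young as in 8_homo, and every wild_young tumor was above every 8_homo tumor. The log2 difference of -0.93 (SE 0.21) narrowly missed the threshold (limma adjusted p = 0.0599, 0.0483 to 0.286 over its alternatives). This comparison also uses the wild_young tumors, which took part in the choice of Rbm3. By range, 4 of the 9 genes did not overlap: Rbm3, Cirbp and Hspa8 were lower and Hsph1 was higher in 8_homo. Ranges did not overlap for 21.2% of all genes tested (11.4% lower and 9.81% higher), while 0.457% passed the limma threshold. For 8_hetero against wild_young the Rbm3 difference was -0.39 (SE 0.21, limma adjusted p = 0.709). No range was separate there, where 7.44% of all genes had separate ranges and 0.00725% passed limma. For 8_homo against 8_hetero it was -0.54 (SE 0.22, limma adjusted p = 0.78), and 0.0507% of all genes passed.

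Over the 3 titles wild_young, 8_hetero and 8_homo, 10 tumors against 6 normal libraries, Rbm3 was higher in tumor by 0.41 on the log2 scale (SE 0.14, limma adjusted p = 0.0193). Rbm3's adjusted p was past the threshold in 26 of 29 alternatives. The wild_young tumors in this mean took part in the choice of Rbm3. In this comparison 2 of the 9 genes rose and 1 fell, where 30.3% and 27.7% of all genes tested did, 58.0% in all. The share of calls that were higher was 52.2% as deposited and 80.6% when each library was rescaled to TPM, which moved the median difference of all genes from 0.03 to 0.39.

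Because Rbm3 is X-linked, Xist, the RNA that coats the inactive X chromosome, is given beside it. Xist was between 0.03 and 0.07 FPKM in 18 libraries. In 1_hetero it was 49.9 in tumor replicate 3 and 30.3 and 28.9 in the normal libraries. In 8_hetero it was 48.8 in tumor replicate 3 and 18.2 and 7.38 in the normal libraries. Rbm3 was 158 to 322 FPKM in the 6 libraries with Xist and 113 to 537 in the 18 without, which included the 6 highest, from 358 upward, and the 2 lowest. Among the 8_hetero tumors the library with Xist, replicate 3, had the lowest Rbm3. With a term for Xist the Rbm3 difference over the 3 titles was 0.35 (limma adjusted p = 0.0556).

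**Figure D1:**
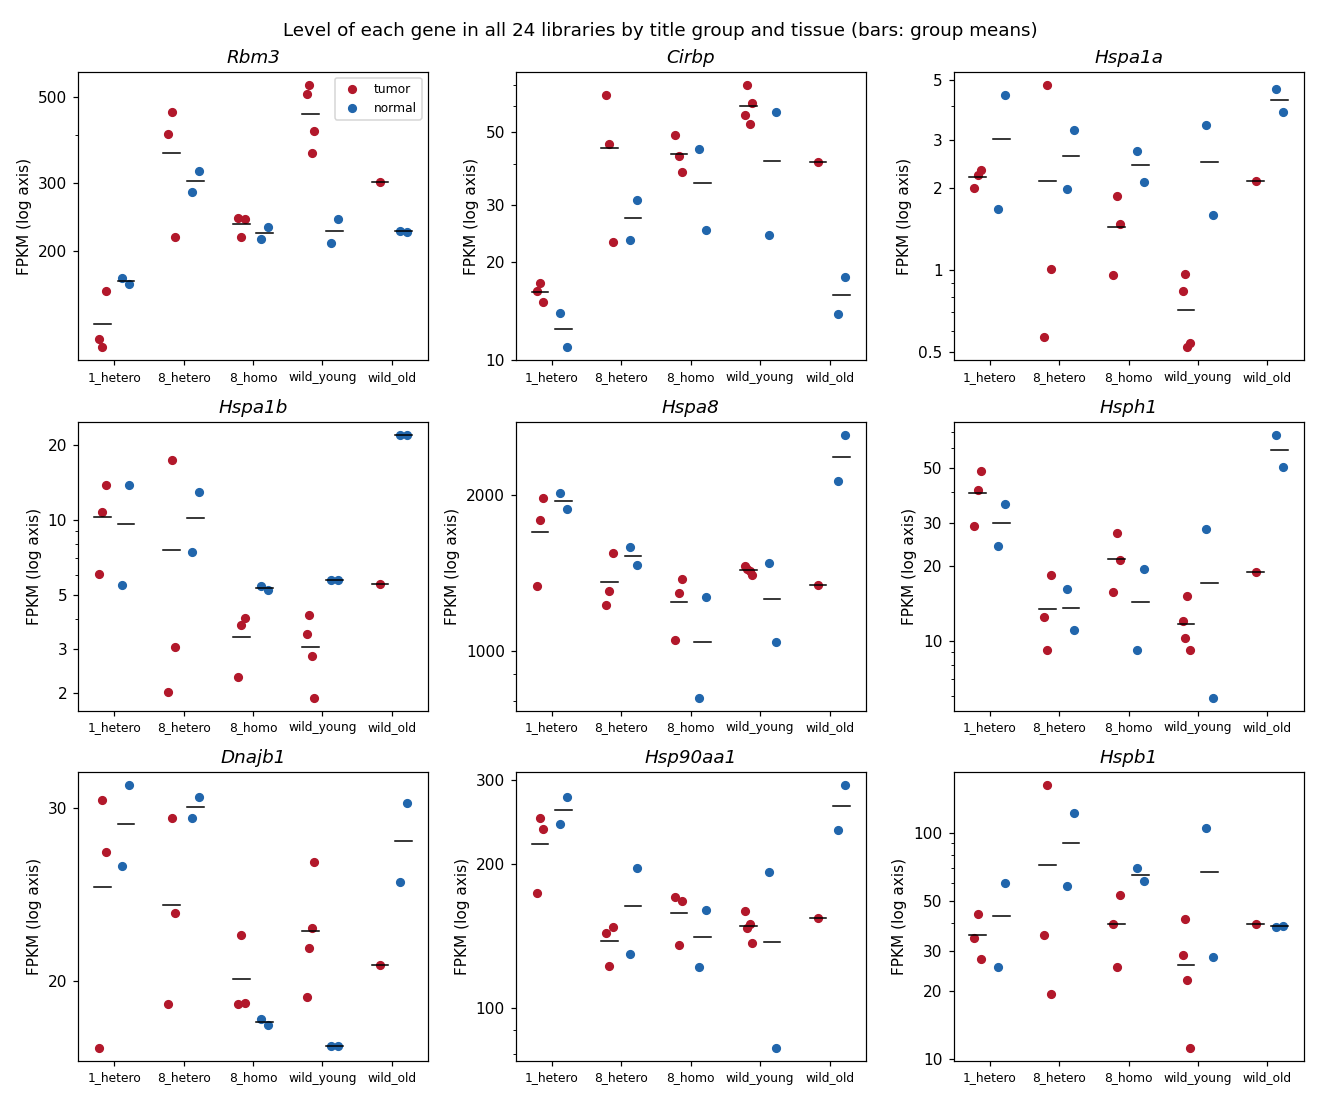
FPKM (log axis) of each of the 9 genes in all 24 libraries by title group, tumor in red and normal in blue, each point 1 library and each bar a group mean. The 5 lowest values of Rbm3 are the 1_hetero libraries, and the 2 wild_old normal libraries are highest for Hspa1b, Hspa8 and Hsph1.

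Cirbp, at chr10:80165985-80172786 (mm10, plus strand), was higher in tumor than in normal tissue over the 3 titles, as Rbm3 was, and its libraries were scattered. The wild_young tumors had 56.6, 69.8, 53.2 and 61.6 FPKM and the wild_young normal libraries 24.3 and 57.6 FPKM. The 8_hetero tumors had 65.0, 46.0 and 23.1 FPKM and their normal libraries 23.4 and 31.0 FPKM. The 8_homo tumors had 48.9, 42.4 and 37.8 FPKM and their normal libraries 44.5 and 25.1 FPKM. Tumor and normal ranges overlapped in each of these titles.

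Over the 3 titles Cirbp was higher in tumor by 0.53 on the log2 scale (SE 0.20, limma adjusted p = 0.0334), past the threshold in 18 of 29 alternatives. It missed the threshold with equal library medians (0.44, limma adjusted p = 0.0709) and with the Xist term (0.38, limma adjusted p = 0.111). The same held from the compared groups alone and without the 1_hetero libraries (0.53 in both, limma adjusted p = 0.0636 and 0.0561). It missed the threshold without 8_hetero tumor replicate 1, 2 or normal replicate 1 (0.42, 0.51 and 0.47), without 8_homo tumor replicate 1 or normal replicate 2 (0.50 and 0.40) and without wild_young tumor replicate 2 or normal replicate 1 (0.51 and 0.33), with limma adjusted p from 0.0508 to 0.159. Within single titles the difference was 0.66 in wild_young (SE 0.34, limma adjusted p = 0.159), 0.59 in 8_hetero (SE 0.36, limma adjusted p = 0.192) and 0.34 in 8_homo (SE 0.36, limma adjusted p = 0.515). The wild_young value was 1.27 without normal replicate 2 (limma adjusted p = 0.0311) and the 8_hetero value 0.99 without tumor replicate 3 (limma adjusted p = 0.0209) and 1.24 on the TPM scale (limma adjusted p = 0.0156). Every 8_homo tumor was below every wild_young tumor, with a log2 difference of -0.48 (SE 0.30, limma adjusted p = 0.642). For 8_hetero tumors it was -0.53 (SE 0.30, limma adjusted p = 0.713).

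The inducible HSP70 genes went the other way. Hspa1a (chr17:34969190-34972156) and Hspa1b (chr17:34956436-34959238, both mm10, minus strand) are neighbours that encode nearly the same protein. In the GENCODE transcripts, 48.6% of the 100-base windows of Hspa1a and 49.9% of those of Hspa1b also occur in another gene, mostly the other of the pair, so the split of fragments between them is uncertain. Their promoters are nearly the same too: 247 of the 250 bases before the start (98.8%) match. RefSeq promoter windows (GRCm38.p6, 250 bases before to 50 after the start) were held for 6 of the 9 genes. The shortest heat shock element searched was GAANNTTC, which reads the same on both strands. It occurred in the windows of Hspa1a, Hspa1b, Hspb1 and Hsph1. Among all genes it occurred in 7.86% of the 32851 windows and for 9.04% of the 27025 gene symbols with a window. The stretches from 150 to 51 bases before the start are shown for the 3 genes that carry it there, since their differences between tumor and normal were the 3 lowest of the 9, with the element in capitals.
Hspa1a, chr17:34972207-34972306, minus strand: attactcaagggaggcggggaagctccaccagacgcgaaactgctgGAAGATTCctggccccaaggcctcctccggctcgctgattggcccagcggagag
Hspa1b, chr17:34959289-34959388, minus strand: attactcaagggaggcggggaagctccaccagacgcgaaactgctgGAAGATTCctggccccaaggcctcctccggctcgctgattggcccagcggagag
Hspb1, chr5:135887769-135887868, plus strand: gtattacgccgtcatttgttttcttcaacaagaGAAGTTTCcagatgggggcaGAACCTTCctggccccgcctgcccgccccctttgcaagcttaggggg
The printed stretches of Hspa1a and Hspa1b are identical, with 1 element that begins 104 bases before the start. Hspb1 has 2, which begin 117 and 97 bases before it. A match describes letters in these windows, not binding.

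Hspa1a was low throughout. Its tumor values were 0.840, 0.966, 0.521 and 0.543 FPKM in wild_young, all below the normal libraries at 3.41 and 1.60. In 8_homo they were 0.964, 1.88 and 1.48 FPKM, all below the normal libraries at 2.75 and 2.11. In 8_hetero they were 0.568, 4.79 and 1.02 FPKM around normal values of 1.99 and 3.26, since tumor replicate 2 was the highest of all 24 libraries. Over the 3 titles the log2 difference was -0.64 (SE 0.23, limma adjusted p = 0.0259), on a scale with 1 added to FPKM that understates changes of so low a gene. It was past the threshold in 21 of 28 alternatives and missed it on the TPM scale, at -0.48 (limma adjusted p = 0.111). It also missed it without 8_hetero tumor replicate 1 or normal replicate 2 (-0.52 and -0.56), 8_homo normal replicate 1 (-0.60) or wild_young normal replicate 1 (-0.52), with limma adjusted p from 0.0508 to 0.0925.

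Within single titles Hspa1a's differences were -0.99 in wild_young (SE 0.39, limma adjusted p = 0.0703), -0.44 in 8_hetero (SE 0.41, limma adjusted p = 0.404) and -0.50 in 8_homo (SE 0.41, limma adjusted p = 0.392). None passed with the values as deposited. In wild_young it passed with a pseudocount of 0.1 (-1.62, limma adjusted p = 0.0465), with quantile normalization (-1.04, 0.0479) and from the compared groups alone (-0.99, 0.0401). In 8_hetero it passed without tumor replicate 2 (-1.005, limma adjusted p = 0.0173).

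Hspa1b ranged from 1.92 to 4.11 FPKM in the wild_young tumors, below 5.73 and 5.71 in their normal tissue. In 8_homo it was 2.33, 3.75 and 4.04 FPKM in tumors, below 5.42 and 5.23. The 8_hetero tumors had 2.01, 17.5 and 3.06 FPKM around 7.42 and 12.98 in normal tissue. Its log2 difference over the 3 titles was -0.71 (SE 0.31, limma adjusted p = 0.0609), and without 8_hetero tumor replicate 2 it was -0.98 (limma adjusted p = 0.000833). It also passed with a pseudocount of 0.1 (-0.87, limma adjusted p = 0.0473), quantile normalization (-0.81, 0.0386) and equal library medians (-0.80, 0.039).

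Since fragments may be divided between the pair, their sum was also tested as 1 value. Summed FPKM was 2.46 to 5.08 in the wild_young tumors against 9.14 and 7.31, and 3.29 to 5.63 in the 8_homo tumors against 8.17 and 7.34. In 8_hetero the tumors had 2.58, 22.3 and 4.07 against 9.41 and 16.2. The log2 difference was -0.81, with p = 0.046 in a two-sided exact permutation test over 1500 splits within titles. Leaving out single libraries moved the p between 0.00111 and 0.193. The p was above 0.05 without 8_hetero tumor replicate 1 or 3 or normal replicate 2, 8_homo tumor or normal replicate 1, wild_young tumor replicate 3 or 4, or wild_young normal replicate 1 (log2 -0.63 to -0.79).

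**Figure D2:**
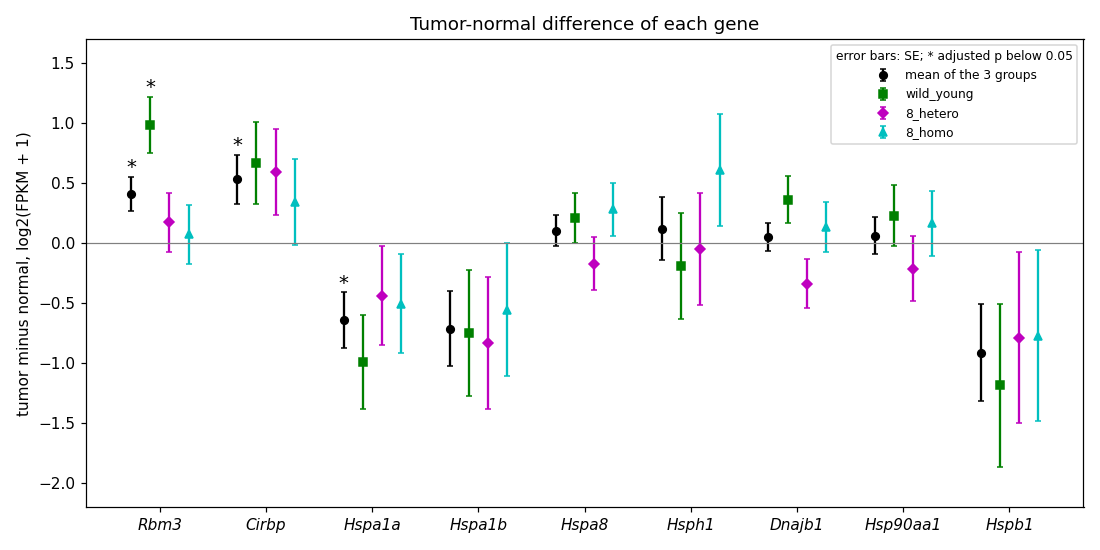
Difference between tumor and normal tissue on the log2(FPKM + 1) scale for each of the 9 genes, over wild_young, 8_hetero and 8_homo (black) and within each title, with bars of 1 SE and a star at a limma adjusted p below 0.05. Rbm3 at 0.41 and Cirbp at 0.53 lie above 0 over the 3 titles and Hspa1a at -0.64 below it.

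Hspb1, at chr5:135887919-135889563 (mm10, plus strand), was lower in most tumors than in normal tissue but its difference over the 3 titles missed the threshold as deposited. The wild_young tumors had 29.0, 41.4, 22.4 and 11.2 FPKM, and their normal libraries 105 and 28.3. The 8_homo tumors had 39.7, 25.6 and 53.0 FPKM, all below 69.6 and 61.0. The 8_hetero tumors had 35.2, 162 and 19.3 FPKM around 58.2 and 121. Tumor replicate 2 of 8_hetero, the highest for Hspa1a among all libraries, was also the highest for Hspb1. Over the 3 titles the log2 difference was -0.91 (SE 0.40, limma adjusted p = 0.0617). Without that library it was -1.20 (limma adjusted p = 0.00494). In all it passed in 6 of 29 alternatives: also without 8_hetero normal replicate 1 (-1.09, limma adjusted p = 0.047), wild_young tumor replicate 2 (-1.002, 0.046) or wild_young normal replicate 2 (-1.22, 0.0206), with equal library medians (-1.002, 0.0434) and with the Xist term (-1.18, 0.0214). Hspb1 shares 42.7% of its windows with the pseudogene Hsp25-ps1.

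Within titles Hspb1's differences were -1.18 in wild_young (SE 0.68, limma adjusted p = 0.205), -0.79 in 8_hetero (SE 0.71, limma adjusted p = 0.385) and -0.77 in 8_homo (SE 0.71, limma adjusted p = 0.456). Without tumor replicate 2 the 8_hetero value was -1.65 (limma adjusted p = 0.0404).

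The other genes listed as small heat shock proteins fell together in the comparison over the 3 titles. All 6 tested of 7 listed were lower, where 27.7% of all genes tested were, with a median log2 difference of -1.55 against 0.03 for all genes. Cryab, the alpha-B crystallin of muscle and lens, had 4.29, 8.56 and 42.1 FPKM as lowest, median and highest of 10 tumors against 16.2, 35.3 and 73.5 in 6 normal libraries (log2 -1.72, limma adjusted p = 0.000329). Hspb7, a muscle small heat shock protein, went from a median of 13.1 to 1.02 FPKM (log2 -2.38, limma adjusted p = 2.32e-05). Hspb2 fell by 1.37 on the log2 scale (limma adjusted p = 6.51e-05). Hspb11, which is in the list by its symbol only, fell by 1.04 (limma adjusted p = 6.91e-06). All 8 smooth muscle markers were lower as well, with a median log2 difference of -2.999, and their summed FPKM was 173 to 1293 in those tumors against 2140 to 7123 in normal tissue. The part of muscle content in the Hspb1 and small heat shock protein values was not tested.

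**Figure D3:**
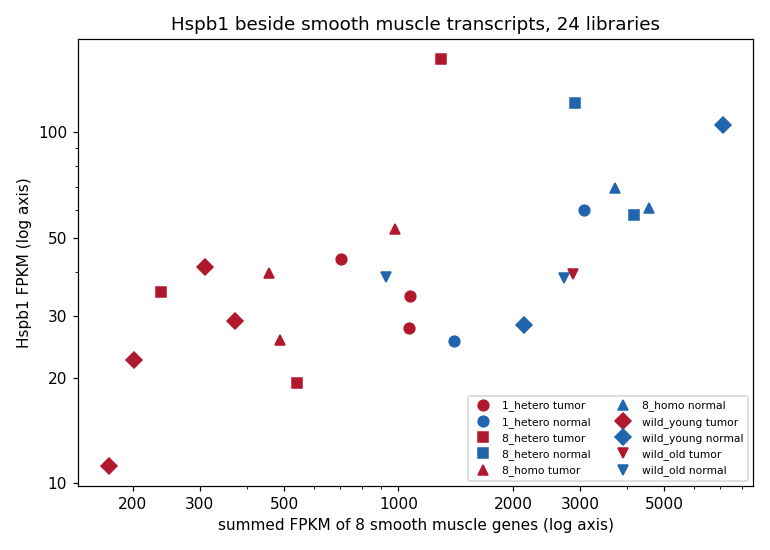
FPKM of Hspb1 against the summed FPKM of 8 smooth muscle markers (both log axes), each point 1 library, tumor in red and normal in blue, with the title as the symbol. Tumors of wild_young, 8_hetero and 8_homo lie at muscle sums of 173 to 1293 and the normal libraries of these titles at 2140 to 7123.

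The other 4 chaperone genes did not pass over the 3 titles. The log2 difference was 0.10 for Hspa8 (SE 0.13, limma adjusted p = 0.487), 0.12 for Hsph1 (SE 0.26, limma adjusted p = 0.71), 0.05 for Dnajb1 (SE 0.12, limma adjusted p = 0.719) and 0.06 for Hsp90aa1 (SE 0.15, limma adjusted p = 0.753). With quantile normalization Hspa8 and Hsp90aa1 passed with 0.71 and 0.39 (limma adjusted p = 0.000158 and 0.0289). On the TPM scale Hspa8, Dnajb1 and Hsp90aa1 passed with 0.51, 0.45 and 0.46, beside the shifted median of 0.39 for all genes, and with equal library medians Dnajb1 and Hsp90aa1 were at -0.036 and -0.028. Hspa8 shares 62.8% of its windows with 7 other genes and Hsp90aa1 shares 47.5%, so these levels may hold fragments of copies.

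Hspa8, at chr9:40800984-40810087 (plus strand), was the most abundant of the 9 per length in every library. It was nearly level in the wild_young tumors at 1457, 1439, 1424 and 1404 FPKM, all above the 8_homo tumors at 1050.0, 1294 and 1379 (log2 -0.22, SE 0.18, limma adjusted p = 0.746; 0.041 with quantile normalization). Hsph1, at chr5:149614287-149636376 (minus strand), was 12, 10.2, 15.2 and 9.18 FPKM in the wild_young tumors and 15.8, 27.4 and 21.2 in the 8_homo tumors. Its ranges did not overlap, and the difference of 0.82 (SE 0.39, limma adjusted p = 0.497) did not pass. Dnajb1, at chr8:83608193-83612653 (plus strand), kept between 17.1 and 31.6 FPKM in all 24 libraries. Hsp90aa1, at chr12:110690605-110702728 (minus strand), ranged from 82.5 to 292 FPKM.

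Of the 6 genes with a promoter window, 1, Hsph1, held 3 adjoining units of the heat shock element in register, on either strand. Such units occurred in 0.603% of all windows and for 0.662% of gene symbols with a window. The longer element contains the shorter one. It is shown because Hsph1 was correlated with Rbm3 in tumors and with Cirbp in normal tissue. Hspa8 and Hsp90aa1 were also correlated with Cirbp in normal tissue, but no promoter window was held for them. The element of Hsph1 begins 36 or 15 bases after the start, depending on which RefSeq start of the gene is used.
Hsph1, chr5:149636288-149636300, minus strand: TTCTGGAAAGTTC

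Among the 10 normal libraries, the 2 of wild_old were the highest for Hspa1b, Hspa8 and Hsph1, while for Dnajb1 and Hspb1 other normal libraries were higher and for Hsp90aa1 the 1_hetero normal libraries lay between the 2. Hsph1 was 67.9 and 50.5 FPKM there against 28.4 and 5.89 in wild_young normal tissue. Hspa1b was 22.0 in both against 5.73 and 5.71. Hspa8 was 2134 and 2614 against 1481 and 1038. Hsp90aa1 was 235 and 292 against 192 and 82.5, beside 242 and 276 in 1_hetero normal tissue. Hspb1 was 38.4 and 38.6 against 105 and 28.3. Cirbp was lower, at 13.8 and 17.9 against 24.3 and 57.6 FPKM.

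In all, 6 of the 9 genes were higher without overlap (these 4 with Hspa1a and Dnajb1) and Cirbp was lower, where 15.6% and 14.9% of all genes tested were so placed, 30.5% in all. With 2 libraries against 2, limma called 0 genes of all those tested (0.0%), with 1059 at an unadjusted p under 0.05. The log2 differences were 2.07 for Hsph1 (SE 0.51, limma adjusted p = 0.334), 1.77 for Hspa1b (SE 0.61, limma adjusted p = 0.462) and 1.05 for Hsp90aa1 (SE 0.30, limma adjusted p = 0.405). They were 0.93 for Hspa8 (SE 0.24, limma adjusted p = 0.378), 0.66 for Dnajb1 (SE 0.23, limma adjusted p = 0.47) and -1.20 for Cirbp (SE 0.39, limma adjusted p = 0.436). The 2 wild_young normal libraries were far apart. Without their replicate 1, Hsph1 was 3.11 higher (limma adjusted p = 0.0166), Hsp90aa1 1.66 (limma adjusted p = 0.0279) and Cirbp -1.81 (limma adjusted p = 0.12). Without their replicate 2, Hsph1 was 1.02 (limma adjusted p = 0.398), Hsp90aa1 0.45 (limma adjusted p = 0.554) and Cirbp -0.59 (limma adjusted p = 0.645). Smooth muscle markers summed to 926 and 2717 FPKM in the wild_old normal libraries and to 2140 and 7123 in the wild_young ones, and the part of this in the differences was not tested.

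The normal libraries of 8_hetero and 8_homo together were lower than those of wild_young and wild_old for Hsph1 (log2 -1.01, SE 0.36, limma adjusted p = 0.421) and Hspa8 (-0.46, SE 0.17, limma adjusted p = 0.444). Cirbp differed by 0.29 (SE 0.28, limma adjusted p = 0.861). In limma 0 of the 9 genes passed, where 0.138% of all genes did, and 2 had an unadjusted p under 0.05, where 7.72% of all genes did.

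Correlations were computed over libraries for the 36 pairs of the 9 genes. Their permutation tests shuffled libraries across titles, so differences between titles enter these p-values. In the 10 normal libraries Cirbp fell as Hsph1 rose, with Pearson r = -0.87 (p = 0.00131, adjusted 0.0148 over 36 pairs, permutation test) and Spearman rho = -0.87 (p = 0.00199, adjusted 0.0246, permutation test). Without the 2 libraries farthest from the median r was -0.83, and after removing title-group means it was -0.99. Each title held 2 normal libraries, so what remained in each title was a mirrored pair of deviations, not separate values. The wild_young pair was far apart in both genes. Cirbp with Hspa8 gave r = -0.84 and with Hsp90aa1 r = -0.88 (adjusted p = 0.0148 for both, permutation test, with rho of -0.87 and -0.81). Hspa8, Hsph1 and Hsp90aa1 rose together with r from 0.84 to 0.85. These 6 pairs were the ones past the threshold by both measures. Rbm3 with Cirbp reached r = 0.53 (adjusted p = 0.24, permutation test), and Rbm3 with Hsph1 r = -0.40 (adjusted p = 0.375, permutation test).

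In the 11 tumors outside 1_hetero Rbm3 fell as Hsph1 rose, with r = -0.87 (p = 0.00101, adjusted 0.0167, permutation test) and rho = -0.85 (p = 0.00185, adjusted 0.0374, permutation test). The wild_young tumors among them took part in the choice of Rbm3, so its p-values here are not independent of that choice. Without the 2 farthest libraries r was -0.83, and within title groups it was -0.73. Hspa1a and Hspa1b gave r = 0.93 (adjusted p = 0.00756, permutation test) and rho = 0.84, the other pair past both, though their fragments may be shared. Rbm3 with Cirbp gave r = 0.76 (p = 0.00342, adjusted 0.0308, permutation test) and rho = 0.80 (p = 0.00417, adjusted 0.05, permutation test). Dnajb1 with Hsp90aa1 gave r = -0.83 (adjusted p = 0.0167, permutation test) and rho = -0.63 (adjusted p = 0.227, permutation test). Hspb1 with Hspa1a and Hspa1b gave r = 0.79 and 0.84 (adjusted p = 0.046 and 0.0395, permutation test), and 0.41 and 0.27 without the 2 farthest libraries. Like Rbm3 with Cirbp, these pairs passed by Pearson r only. Rbm3 with Hspa1b, Hspa8, Dnajb1 and Hspb1 gave r from 0.19 to 0.23. Cirbp with Hsph1 gave r = -0.62 in tumors (adjusted p = 0.199, permutation test). Libraries of a title share a group, and whether these correlations differ between tumor and normal was not tested.

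**Figure D4:**
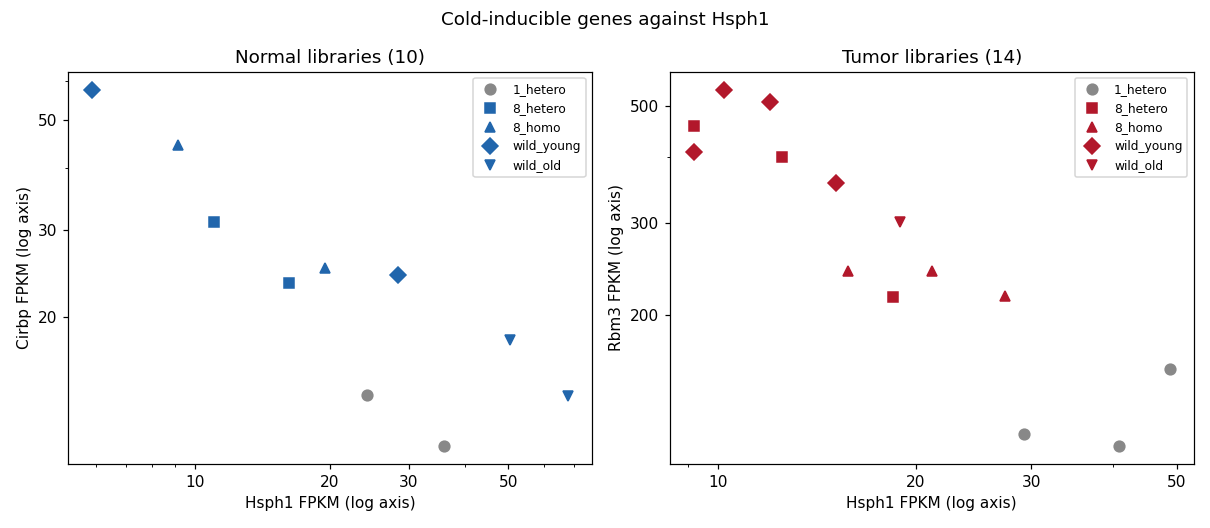
Cirbp FPKM against Hsph1 FPKM in the 10 normal libraries and Rbm3 FPKM against Hsph1 FPKM in the 14 tumors (log axes), each point 1 library with its title as the symbol and 1_hetero in grey. Cirbp falls with Hsph1 in the 10 normal libraries, grey ones included (r = -0.87), and Rbm3 falls with Hsph1 in the 11 tumors not in grey (r = -0.87).

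The 1_hetero libraries held the lowest Rbm3 values of the series, which is how the gene was chosen. Its 3 tumors had 119, 113 and 158 FPKM and its 2 normal libraries 170.1 and 164, while the lowest of the other 19 libraries had 210.5. The mean of the wild_young tumors was 3.49 times that of the 1_hetero tumors. Cirbp showed 16.3, 17.2 and 15.1 FPKM in the 1_hetero tumors and 13.9 and 10.9 in their normal tissue, and the wild_young tumor mean was 3.72 times that of the tumors. Within 1_hetero, tumors were lower than normal tissue for Rbm3 and higher for Cirbp without overlap, where 60.2% of all genes were separate. Against the 8 other normal libraries, the 1_hetero normal libraries were lower without overlap for 1 of the 9 genes, Rbm3, where 9.99% of all genes were separate. Xist was 0.05 and 0.06 FPKM in tumor replicates 1 and 2 and 49.9 in replicate 3.

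Hsph1 was 29.2, 40.9 and 48.8 FPKM in the 1_hetero tumors, 3.40 times the wild_young tumor mean. Hsp90aa1 was 174, 249 and 237 FPKM, 1.49 times that mean. Hspa1b was 6.06, 10.8 and 13.9 FPKM and Hspa1a 2.01, 2.24 and 2.33, which were 3.33 and 3.06 times it. Of the 9 genes, 4 were higher and 2 lower than in the wild_young tumors without overlap, where 12.6% and 14.8% of all genes were, 27.4% in all. Against all 11 other tumors, Hsph1 and Hsp90aa1 were higher and Rbm3 and Cirbp lower, where 0.58% and 1.28% of all genes were, 1.86% in all. These contrasts chose the genes, so nothing is read from the counts. Smooth muscle markers summed to 707 to 1072 FPKM in the 1_hetero tumors and 173 to 371 in the wild_young tumors.

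Other chaperone families were counted over the 3 titles, where 30.3% of all genes were higher and 27.7% lower, and no test between families was made. The chaperonin TRiC, which folds actin and tubulin, had 5 of 8 subunits higher and 1 lower. Cct3 went from a median of 96.3 FPKM in normal tissue to 140 in tumors (log2 0.61, limma adjusted p = 0.00042), and Cct6a from 77.3 to 114 (log2 0.51, limma adjusted p = 5.66e-05). Cct4 was lower at -0.27 (limma adjusted p = 0.0126) but above 0 with quantile normalization and on the TPM scale. Of 12 HSP90 genes and co-chaperones, 4 rose and 1 fell. Hsp90ab1, the constitutive HSP90, rose by 0.48 (limma adjusted p = 0.000903) and Fkbp5, a glucocorticoid-induced co-chaperone, fell by 1.99 (limma adjusted p = 5.94e-06), from a median of 30.9 to 7.02 FPKM.

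Of 16 other cytosolic HSP70, HSP40 and HSP110 genes, 5 rose and 2 fell, among them Hspa4l, an HSP110 relative, at 0.59 (limma adjusted p = 0.000589). Of 8 BAG and nucleotide exchange genes 3 fell and 0 rose, led by Bag1 at -0.73 (limma adjusted p = 2.85e-05). Of 9 mitochondrial chaperones, 5 fell and 1, Hspd1, rose by 0.38 (limma adjusted p = 0.0218). Of 17 endoplasmic reticulum genes, 5 fell and 1 rose, and Hspa5, the reticulum HSP70, had 0.24 (SE 0.15, limma adjusted p = 0.201). On the TPM scale the mitochondrial list had 4 genes higher and 0 lower, the reticulum list 10 and 0, and the BAG list 4 and 1. Their median log2 differences there were 0.16, 0.40 and 0.22, beside the shifted median of 0.39 for all genes.

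Of the 4 heat shock factor genes and regulators, Hsf2 rose by 0.27 (limma adjusted p = 0.0264), Hsf4 had -0.26 (limma adjusted p = 0.0194) and Hsbp1 -0.26 (limma adjusted p = 0.0246), the last above 0 on the TPM scale. Hsf1, the main activator of heat shock genes, had -0.14 (SE 0.11, limma adjusted p = 0.283). Among 11 tested cold shock domain and cold-responsive RNA-binding genes, 2 rose and 4 fell. Hnrnpa1, a splicing regulator, rose by 0.96 (limma adjusted p = 3.24e-06) and Ybx3, a cold shock domain protein, fell by 0.65 (limma adjusted p = 0.000166). Clk1, a temperature-sensitive splicing kinase, had -0.29 (SE 0.12, limma adjusted p = 0.0466), above 0 on the TPM scale, and Clk4 -0.07 (limma adjusted p = 0.535).

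**Figure D5:**
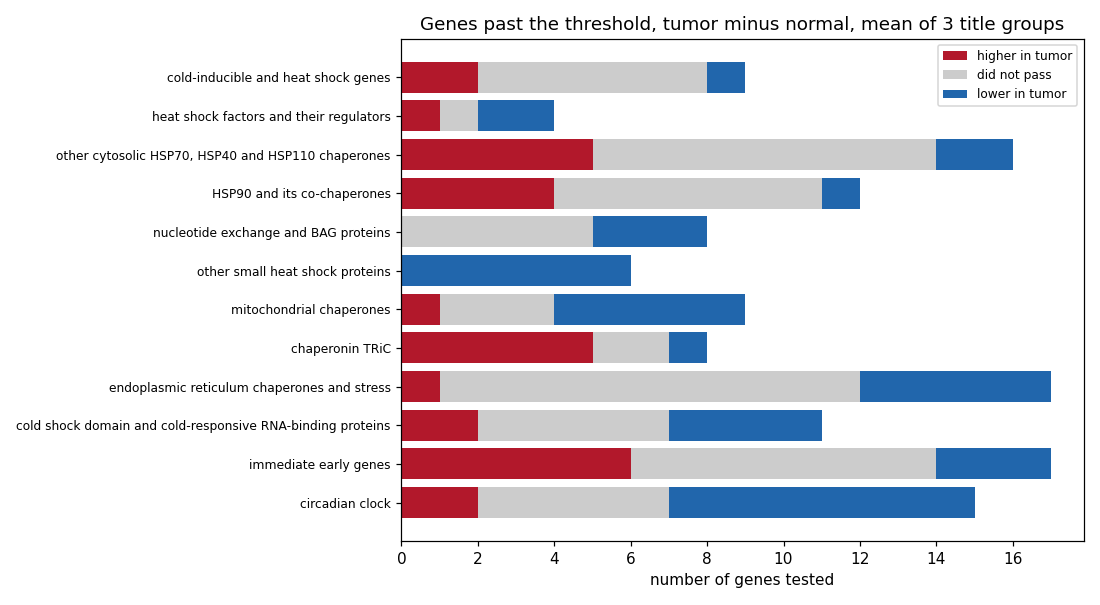
Number of tested genes of each list that were higher in tumor (red), did not pass (grey) or were lower (blue), in the limma comparison over wild_young, 8_hetero and 8_homo. All 6 genes tested from the list of other small heat shock proteins were lower, and 5 of 8 TRiC subunits were higher with 1 lower. Of all genes tested, 30.3% were higher and 27.7% lower.

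Immediate early genes, which respond within minutes to handling, and circadian clock genes were counted beside the same shares of all genes. Of 17 tested immediate early genes 6 rose and 3 fell, with Ier3 at 2.25 (limma adjusted p = 2.34e-07). Of 15 circadian clock genes 8 fell and 2 rose, with Dbp, a clock output factor, at -1.99 (limma adjusted p = 9.33e-07) and Nr1d1 at -1.67 (limma adjusted p = 5.43e-05). Within 8_homo 1 clock gene was higher and 1 lower. On the TPM scale over the 3 titles, where the median of all genes was 0.39, 2 clock genes were higher and 4 lower. Their part in the values of the 9 genes was not tested. Of the cell type lists, all 5 neutrophil genes and 3 of 5 macrophage genes rose with 0 lower, 4 of 6 fibroblast genes rose with 1 lower, and 2 of 4 T cell genes rose with 0 lower. Of 4 B cell genes 3 fell, of 5 enteric neuron and glia genes 4 fell, of 8 epithelial genes 4 fell, and of 4 endothelial genes 0 passed. On the TPM scale 3 epithelial genes were higher and 1 lower, beside the shifted median of 0.39 for all genes.

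By likeness over the 24 libraries after tumor and normal means were removed, Rbm3 was closest to Mpg (r = 0.84), 1810058I24Rik (0.83), Aptx (0.83), Dis3l2 (0.81) and Vps11 (0.81). Hspa8 was closest to Tra2a (r = 0.90), Chordc1 (0.87), Dnaja1 (0.87), Ahsa1 (0.85) and Taf12 (0.83). Hspa1a was closest to Hspa1b (r = 0.86), Pvrl1 (0.78), 6330403K07Rik (0.77), Ank (0.76) and Eef1a2 (0.74). These r values are descriptions across libraries that share title groups. The 24 include the 1_hetero libraries and wild_young tumors that chose Rbm3, so the genes closest to Rbm3 are not independent of that choice.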

How the data were processed

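The authors deposited 1 table of FPKM per library, per the file headers. Per the submitters' processing notes, TopHat2 2.1.1, Bowtie2 2.2.8, SAMtools 0.1.18, Cuffdiff 2.2.1 and mm10 were named. Since FPKM hold no read totals, count tests were left aside. Deposited FPKM were taken to log2(FPKM + 1), and genes at 1 FPKM or more in at least 4 libraries were kept. limma 3.58.1 (R 4.3.3; eBayes with trend) fitted 1 model of 10 title groups to all 24 libraries, two-sided, with Benjamini-Hochberg adjustment over all 13799 genes and a threshold of 0.05. The exact permutation test of the Hspa1a and Hspa1b sum was run in R 4.3.3. Correlations (100000 resamples) used Python 3.11.15 with numpy 2.4.6, and scipy 1.17.1 for the ranks. The limma script was tested on simulated data: 87.8% of genes changed by 1 on the log2 scale were recovered over the 3 titles (13799 genes), 73.4% for 8_homo against wild_young tumors. No pair of libraries was identical. Alternatives covered the pseudocount, filter, scaling, libraries used, an Xist term, replicate blocks and each library left out; the TPM scale was added after seeing the data. From each list at most 4 genes were named, those with the smallest p over the 3 titles, beside Hsf1, Hsf2, Hspa5, Clk1, Clk4 and Xist; genes most like a member were the 5 with the highest r. Maf was added after its values were seen. The members and lists were chosen with earlier results of these data known. Gene positions are from GENCODE M21. The number of libraries limits precision.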

Additional observations from a re-analysis of the deposited data

How the results depend on the processing

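Of 39 values of the 9 genes, 802 alternatives left 735 with the same direction and side of the threshold, 22 lost a call, 31 gained 1 and 14, all of values that had not passed, changed sign. Rbm3 over the 3 titles lost its call with equal library medians (0.32, limma adjusted p = 0.0607), with an Xist term (0.35, 0.0556) and without wild_young normal replicate 1 (0.38, 0.051). Changes of sign were Hspa8 in 8_homo against wild_young tumors (0.041 with quantile normalization), Dnajb1 and Hsp90aa1 over the 3 titles (-0.036 and -0.028 with equal medians) and Rbm3 within 8_homo (-0.020 with equal medians) and within 8_hetero (-0.0059 with the Xist term). Leaving out 1 library each gave -0.0026 to 0.21 for Hspa8, -0.23 to 0.47 for Hsph1 and -0.14 to 0.26 for Hsp90aa1 over the 3 titles, -0.039 to 0.50 for Rbm3 within 8_hetero, -0.057 to 0.74 for Cirbp within 8_homo, -0.012 to 0.60 for Cirbp between normal tissues, and -1.08 to -0.63 for the Hspa1a and Hspa1b sum.

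Counts of genes past the limma threshold follow. The 8_hetero interaction (13) gave 28 with a pseudocount of 0.1, 22 unfiltered, 7 with quantile normalization and 0 from the compared groups alone. The 8_homo interaction (0) gave 4 unfiltered, 3 with quantile normalization, 10 from the compared groups and 4 without 1_hetero. Tumors of 8_hetero against wild_young (1) gave 2 unfiltered and 0 at a mean FPKM of 5, with quantile normalization and from the compared groups. Tumors of 8_homo against wild_young (63) gave 32 on the TPM scale and 135 from the compared groups. Tumors of 8_homo against 8_hetero (7) gave 13 at a mean of 5, 19 with quantile normalization, 2 on the TPM scale, 0 from the compared groups, 25 without 1_hetero and 3 with the Xist term. Normal tissue of 8_hetero and 8_homo against wild_young and wild_old (19) gave 33 unfiltered, 0 with quantile normalization, 12 with equal medians, 2 on the TPM scale, 1 from the compared groups, and 0 without 1_hetero and with the Xist term. Normal tissue of wild_old against wild_young (0) gave 10 unfiltered. Tumor against normal gave 2295 in wild_young (3604) and 2056 in 8_homo (3180) at a mean of 5, 651 in 8_hetero (5946) and 6173 in 8_homo from the compared groups, and 3792 in 8_hetero with the Xist term.

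Leaving out 1 library each gave 7148 to 8427 over the 3 titles, 2524 to 3760 in wild_young, 2506 to 6795 in 8_hetero (lowest without its normal replicate 2) and 737 to 2335 in 8_homo (lowest without its normal replicate 1). It gave 0 to 242 for 8_hetero against wild_young and 0 to 342 for 8_homo against 8_hetero (both highest without 8_hetero tumor replicate 1), and 18 to 49 for 8_homo against wild_young (lowest without 8_homo tumor replicate 2). It gave 0 to 1431 between normal tissues and 7 to 3045 for the 8_hetero interaction (both highest without 8_hetero normal replicate 1), 0 to 124 for the 8_homo interaction and 0 to 16 for wild_old against wild_young (both highest without wild_young normal replicate 1). The share of higher calls on the TPM scale was 72.4% in wild_young, 87.5% in 8_hetero and 76.8% in 8_homo, against 52.3%, 50.7% and 51.3% as deposited, and with equal medians it was 38.1% in 8_homo.

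Same-numbered libraries were not shown to be paired: 6 of 17 pairs had deviations correlated above 0.1 (range -0.22 to 0.44). In 8_hetero, Xist was 0.05 FPKM in tumor replicates 1 and 2 but 18.2 and 7.38 in the same-numbered normal libraries. The same-numbered pairs of 1_hetero differed in Xist in the same way. With the number as a replicate block the counts were 0 for 8_hetero against wild_young tumors, 15 for 8_homo against 8_hetero tumors, 12 between normal tissues, 1 for wild_old against wild_young and 23 for the 8_hetero interaction, and with title and number as the block 2115 in 8_homo. With title and number as the replicate block Rbm3 and Cirbp within 8_hetero were 0.50 and 0.99 (limma adjusted p = 0.0405 and 0.0292). Tumor replicate 3 of 8_hetero has no same-numbered normal library, so these differences equal those found without it and are not a separate result. Under these replicate blocks Hspa1a over the 3 titles was -0.56 and -0.53 (limma adjusted p = 0.0702 and 0.0731). Contrasts that need wild_old could not be fitted without it, and Hspa1a was not tested at a mean FPKM of 5. The cause of these changes was not tested.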
